A study of Mus musculus with 4 samples.

Results

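The IGF binding proteins are secreted proteins that hold insulin-like growth factors in the extracellular space. The genes described here are Igfbp2, Igfbp3, Igfbp4, Igfbp5, Igfbp6 and Igfbp7, together with Igf1r, the cell-surface tyrosine kinase receptor for IGF-1 and IGF-2. They were chosen by name, as gene family and receptor, and make up 7 of the 31053 genes in the count matrices. All 7 symbols were found once in each matrix. Earlier results of these data were known when the genes were chosen.

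The values come from droplet single-cell RNA sequencing (10x Genomics 3′ libraries, in which each captured mRNA molecule is counted as 1 unique molecular identifier, UMI) of mammary epithelial cells from the fourth mammary glands of FVB mice. All 4 libraries carried the same genotype, Tfap2cfl/fl / Krt5-CreERT2. Tfap2c encodes the transcription factor AP-2γ, its alleles were floxed, and a Cre recombinase that needs 4-hydroxytamoxifen (4OHT) for its activity was driven by the promoter of the basal keratin gene Krt5. Injections began at week 4, and the glands were taken at postnatal week 9. There were 2 corn oil libraries (controls, which also carried the floxed alleles and the Cre) and 2 libraries labelled 4OHT, each treated as 1 sample. By the labels 2 mice of each condition were sequenced, no label ties a library to its mouse, and the tests measure the spread between these libraries.

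IGFs are bound with high affinity by most IGF binding proteins, which keeps the ligand away from the receptor, prolongs its life or delivers it locally. Proteases such as pappalysin cut certain binding proteins and release the ligand, and stanniocalcins inhibit pappalysin. Igfbp7 binds IGFs only weakly and is known as a matrix and vascular protein, while Igfbp5 is best known in the mammary gland for its rise during involution. In the gland the basal layer holds contractile myoepithelial cells, and the luminal layer holds progenitors of milk-secreting cells and hormone-sensing cells with oestrogen and progesterone receptors.

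The libraries held 3546 to 5545 cells and 17351950 to 22017878 UMIs, and any pair of libraries shared 18 to 36 cell barcodes, at most 0.749% of the smaller library. Cells with at least 1000 UMIs were sorted by keratin counts into basal, luminal progenitor and hormone-sensing classes, and UMIs were summed per library and class, and scaled to the total UMIs of that sum (CPM). The basal class held 1421 to 2178 cells per library, the progenitor class 1132 to 1770 and the hormone-sensing class 151 to 447. Marker genes that the gates had not used followed the names: 6 basal markers summed to 1558 to 2165 CPM in the basal class against 32.3 to 50.7 CPM in progenitors, and 6 hormone-sensing markers to 1165 to 2234 CPM against 34.6 to 133 CPM. Progenitor markers were also present in the basal class at 980 to 2347 CPM, against 5348 to 7098 CPM in progenitors. Lcn2 alone gave 965 to 2310 CPM of that basal sum, and each of the other 5 markers was at 0 to 16.1 CPM there. The part of free RNA or mixed droplets in these values was not tested. Between 14.6% and 24.0% of the cells passed no gate. Tfap2c itself was at 389 and 285 CPM in the basal class of the corn oil libraries and at 285 and 325 CPM in those labelled 4OHT, a log2 difference of -0.08 (SE 0.25, adjusted p = 0.999, edgeR quasi-likelihood test). These 3′ counts give no lower Tfap2c in the libraries labelled 4OHT, and a 3′ count need not see a deletion elsewhere in the gene. The label 4OHT below therefore names libraries and not cells without AP-2γ.

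Most of the genes lie apart in the mouse genome (GENCODE M21, GRCm38), and each range below covers the annotated exons and introns. Igfbp2 (ENSMUSG00000039323, chr1:72824503-72852474, plus strand) and Igfbp5 (ENSMUSG00000026185, chr1:72857932-72874884, minus strand) lie end to end with 5457 bases between them. Igfbp3 (ENSMUSG00000020427, chr11:7206086-7213923, minus strand) lies 3539 bases from Igfbp1, which had no UMI in the basal, progenitor, hormone-sensing, endothelial or fibroblast sums. Igfbp4 (ENSMUSG00000017493, chr11:99041244-99054392) and Igfbp6 (ENSMUSG00000023046, chr15:102144362-102149511) are on the plus strand of their chromosomes. Igfbp7 (ENSMUSG00000036256) is at chr5:77349240-77408041 on the minus strand, and Igf1r (ENSMUSG00000005533) at chr7:67952827-68233668 on the plus strand. The neighbours Igfbp2 and Igfbp5 had different class patterns, given below.

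3 promoters are shown because their genes carry the main patterns: Igfbp2 and Igfbp4, which were highest in basal cells and varied together from cell to cell, and Igfbp5, which was highest in luminal progenitors. Each sequence is the 250 bases before the RefSeq transcript start (GRCm38.p6), written 5′ to 3′ on the gene's strand, for Igfbp2 at chr1:72824230-72824479 (plus), for Igfbp4 at chr11:99040994-99041243 (plus) and for Igfbp5 at chr1:72874866-72875115 (minus). Capitals mark matches, on either strand, to the AP-2 motif GCCNNNGGC or to the core of the hypoxia response element, ACGTG or GCGTG. The second motif was added after the genes that varied with Igfbp4 had been seen.
Igfbp2: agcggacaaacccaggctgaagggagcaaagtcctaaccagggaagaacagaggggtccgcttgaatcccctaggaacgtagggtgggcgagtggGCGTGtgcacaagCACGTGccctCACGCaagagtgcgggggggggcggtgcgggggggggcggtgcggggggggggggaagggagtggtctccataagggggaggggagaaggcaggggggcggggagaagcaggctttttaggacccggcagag
Igfbp4: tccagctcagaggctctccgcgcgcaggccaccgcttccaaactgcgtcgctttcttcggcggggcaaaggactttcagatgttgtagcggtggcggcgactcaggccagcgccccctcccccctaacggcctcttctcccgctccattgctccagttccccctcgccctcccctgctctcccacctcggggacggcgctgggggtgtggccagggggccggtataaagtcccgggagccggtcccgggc
Igfbp5: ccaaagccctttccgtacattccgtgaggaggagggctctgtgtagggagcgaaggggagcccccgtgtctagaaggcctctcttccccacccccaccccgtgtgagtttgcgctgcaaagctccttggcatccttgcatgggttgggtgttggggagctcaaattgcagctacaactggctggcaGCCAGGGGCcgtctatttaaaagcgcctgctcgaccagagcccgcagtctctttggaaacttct
Igfbp2 held 4 hypoxia cores, with overlapping matches counted, and no AP-2 match. Its second annotated start, at chr1:72825137-72825386, held neither. Igfbp5 held 1 AP-2 match close to its start and no hypoxia core, and Igfbp4 held neither motif. Hypoxia cores were not particular to Igfbp2: the promoters not shown of Igf1r (3), Igfbp3 (2) and Igfbp7 (2) held them too. That of Igfbp6 held neither motif. Of 32851 mouse promoter windows of this kind, 13.7% held the AP-2 motif and 38.6% a hypoxia core. These are letter matches, and binding at them was not measured here.

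Among the 3 epithelial classes Igfbp2, Igfbp4 and Igfbp3 were highest in basal cells in all 4 libraries. Igfbp2 was at 537 and 866 CPM in the basal class of corn oil libraries 1 and 2 and at 308 and 671 CPM in 4OHT libraries 1 and 2. In luminal progenitors its levels were 13.6, 13.2, 16.7 and 17.1 CPM in the same order, and in hormone-sensing cells 15.4, 13.5, 14.8 and 8.66 CPM. The lowest basal library was far above the highest luminal one, although the basal libraries themselves spread widely (596 ± 234 CPM, SD, n = 4 libraries). The difference between basal cells and progenitors was 4.95 on the log2 scale (SE 0.27, 30.8-fold, adjusted p = 2.6e-10, edgeR quasi-likelihood test with Benjamini-Hochberg adjustment over 11135 genes). Where Acta2 was left out of the basal gate, the difference was 3.76, and with a gate ratio of 1, added after the data were seen, it was 3.20.

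Igfbp4, a binding protein that pappalysin cuts, was at 289, 265, 154 and 239 CPM in basal cells. In progenitors it was at 8.94, 6.61, 6.55 and 7.89 CPM, so the classes did not overlap. The log2 difference was 4.70 (SE 0.32, 25.9-fold, adjusted p = 3.3e-09, edgeR), and 3.34 to 5.08 over the alternatives. Hormone-sensing cells had 28.5 CPM in corn oil library 1 and 1.76, 2.58 and 4.72 CPM in the others. That high value came from 37 UMIs in 10 cells, of which 14 UMIs sat in 1 cell, and without that cell it was 18.0 CPM.

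Igfbp3, the main IGF carrier of the circulation, had a lower basal level that split the libraries by number and not by treatment. It was at 93.2 and 102 CPM in corn oil library 1 and 4OHT library 1, and at 53.1 and 50.4 CPM in corn oil library 2 and 4OHT library 2. In progenitors it was at 2.48, 4.46, 6.19 and 4.19 CPM (corn oil 1 and 2, 4OHT 1 and 2) and in hormone-sensing cells at 1.18 to 2.58 CPM. The basal class was 3.81 above progenitors on the log2 scale (SE 0.21, adjusted p = 2.9e-10, edgeR), and 2.97 to 4.98 over the alternatives.

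Igfbp5 had another order, with progenitors above basal cells and hormone-sensing cells lowest. It was at 756, 374, 581 and 336 CPM in luminal progenitors, at 247, 345, 201 and 137 CPM in basal cells, and at 12.3, 11.8, 11.6 and 15.4 CPM in hormone-sensing cells. Progenitors exceeded basal cells within each library, least in corn oil library 2, while across libraries the 2 classes overlapped. With a gate ratio of 10, corn oil library 2 had the reverse order, at 402 CPM in basal cells and 337 CPM in progenitors. Over the alternatives the log2 difference between basal cells and progenitors was -1.80 to -0.94. Basal cells were 1.42 lower than progenitors (log2 -1.42, SE 0.23, 2.67-fold, adjusted p = 6.9e-05, edgeR). Hormone-sensing cells were lower still, at log2 -5.47 against progenitors (SE 0.30, 44.3-fold, adjusted p = 1.5e-09), with no overlap. For its genomic neighbour Igfbp2 the difference between the luminal classes was -0.55 and did not pass (adjusted p = 0.178, edgeR). That comparison passed the test in 3 alternatives: with no filter on low counts (adjusted p = 0.00623), without Acta2 in the gate (log2 -1.43, adjusted p = 0.0159) and with a gate ratio of 1 (-1.64, adjusted p = 0.00189).

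Igfbp7 and Igf1r fell in steps from basal cells to progenitors to hormone-sensing cells. Igfbp7 was at 184, 230, 220 and 231 CPM in basal cells, a narrow spread (216 ± 22.2 CPM, SD, n = 4). Progenitors had 107, 63.3, 66.3 and 52.3 CPM, and hormone-sensing cells 13.9, 13.5, 32.8 and 24.8 CPM. The 3 classes did not overlap. Basal cells were 1.34 above progenitors (SE 0.22, 2.53-fold, adjusted p = 8.6e-05, edgeR), and hormone-sensing cells were 1.99 below them (log2 -1.99, SE 0.27, 3.97-fold, adjusted p = 1.6e-05).

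Igf1r, the receptor, was at 138, 100.2, 113 and 96.4 CPM in basal cells. It was at 21.2, 30.7, 32.3 and 21.7 CPM in progenitors and at 4.63, 3.53, 8.37 and 3.94 CPM in hormone-sensing cells. None of these ranges touched another. Its basal level was 1.82 above that of progenitors (SE 0.16, 3.53-fold, adjusted p = 7.1e-08, edgeR), and hormone-sensing cells were 2.63 below progenitors (log2 -2.63, SE 0.24, 6.20-fold, adjusted p = 3.0e-07).

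Igfbp6, which prefers IGF-2, was a basal gene among these classes, but its luminal values rested on very few cells. It was at 6.67, 8.26, 14.7 and 8.50 CPM in basal cells. Without cells with at least 3 UMIs of another cell type's markers these basal levels were 6.30, 5.03, 14.4 and 8.62 CPM. In progenitors it was at 0.138, 0.330 and 0.322 CPM in corn oil libraries 1 and 2 and 4OHT library 2, and at 13.3 CPM in 4OHT library 1. Of the 112 UMIs behind that value, 95 were in 1 cell of 12633 UMIs, which also held 145 UMIs of the fibroblast gene Dcn, 39 of Col3a1 and 10 of Lum. Without that cell the value was 2.03 CPM. Hormone-sensing cells had 0.771, 0, 6.44 and 0 CPM, from 1 UMI in corn oil library 1 and 10 UMIs of a single cell in 4OHT library 1. The log2 difference between basal cells and progenitors was 2.11 (SE 0.60, 4.32-fold, adjusted p = 0.00715, edgeR). It did not pass the test without corn oil library 1 (adjusted p = 0.0637), without corn oil library 2 (0.0502) or without the library block (0.352), and without 4OHT library 1 it was 4.51.

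As a list, 6 of the 7 genes were higher and 1 (Igfbp5) was lower in basal cells than in progenitors. Over all 11135 genes tested, 56.1% were called in this comparison, 29.5% as higher and 26.6% as lower. The median log2 difference was 2.11 over the 7 genes and 0.04 over all genes. Between basal and hormone-sensing cells all 7 genes were higher in basal cells, by 3.20 (Igfbp6) to 5.49 (Igfbp2), with a background of 59.8% called, 32.4% as higher and 27.3% as lower. The Igfbp6 call was lost without the library block (adjusted p = 0.109, edgeR). Between hormone-sensing cells and progenitors, 4 of the 7 were lower and none was higher, against 46.4% of all genes called, 24.6% as lower and 21.9% as higher. The fourth of these, Igfbp3, had a log2 difference of -1.33 (SE 0.40, adjusted p = 0.0121), which missed the threshold without corn oil library 2 (0.0526), without 4OHT library 1 (0.0604), without the 5% of cells with the most UMIs (0.102) and with a gate ratio of 10 (0.0834). Igfbp4 (-0.22, adjusted p = 0.713) and Igfbp6 (-1.08, adjusted p = 0.385) did not pass, but without corn oil library 1 Igfbp4 did (-1.41, adjusted p = 0.00554), as it did with a gate ratio of 1 (-1.03, adjusted p = 0.0432), and so did Igfbp6 with no filter on low counts (adjusted p = 0.0368).

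**Figure D1:**
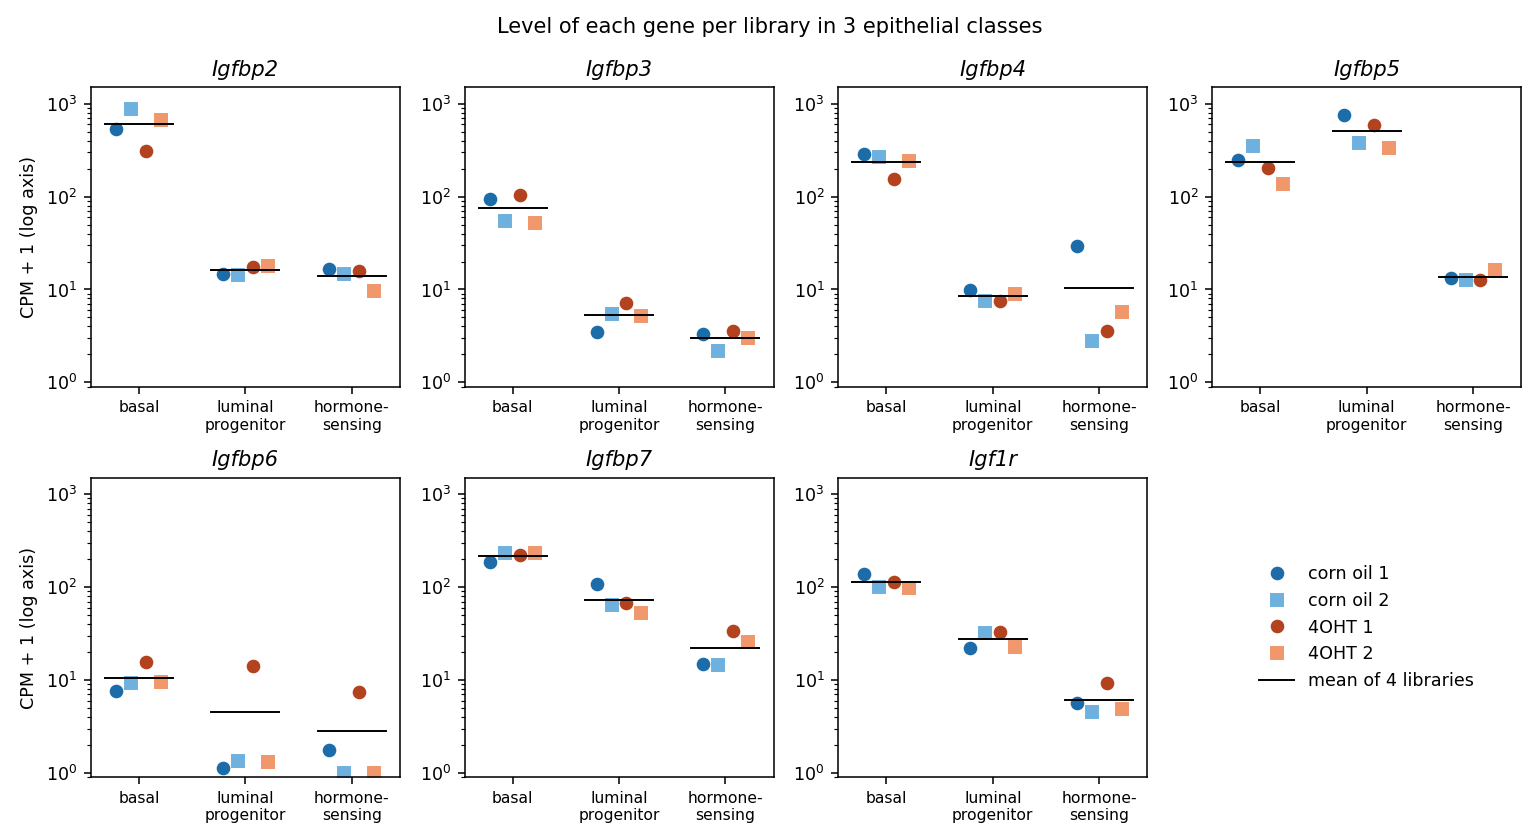
Level of each gene as CPM + 1 (log axis) in the basal, luminal progenitor and hormone-sensing classes, with 1 point for each of the 4 libraries and a line at their mean. Igfbp2, Igfbp3 and Igfbp4 stand well above both luminal classes in basal cells, Igfbp5 peaks in progenitors, and the 13.3 CPM of Igfbp6 in progenitors of 4OHT library 1 stands apart from the other 3 libraries.

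**Figure D2:**
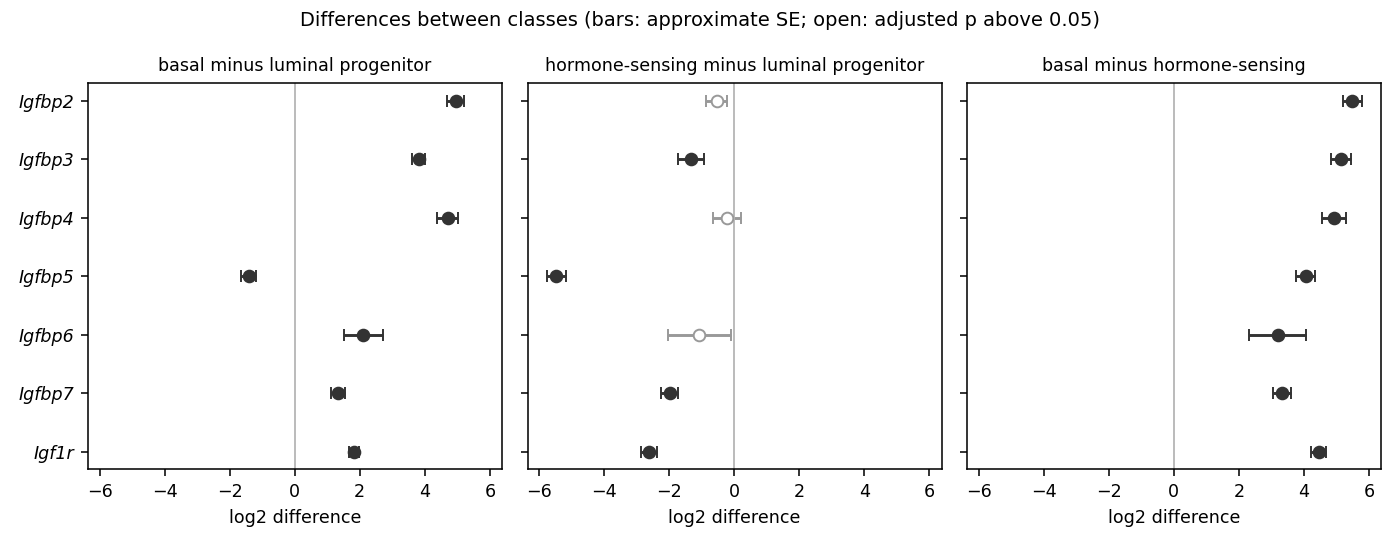
Log2 differences between the cell classes for the 7 genes, from the edgeR fit over 11135 genes, with bars for the approximate SE and open points for an adjusted p above 0.05. Igfbp5 is the only one of the 7 that lies below 0 between basal cells and progenitors (-1.42), and it has the lowest value between hormone-sensing cells and progenitors (-5.47).

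Cells outside the 3 classes are given as sums of few cells, with no test. Endothelial-gated cells (7, 86, 44 and 154 cells in corn oil 1 and 2 and 4OHT 1 and 2) had Igfbp7 at 805, 1997, 469 and 2192 CPM and Igfbp4 at 38.3, 642, 429 and 506 CPM. Igfbp3 was at 192, 75.7, 52.8 and 133 CPM in them, above the basal class in 3 of the 4 libraries, so its restriction to basal cells holds among the epithelial classes only. The endothelial junction gene Cdh5 was at 391 to 728 CPM in them, and Igfbp7 was at 13.5 to 231 CPM in all epithelial sums. Fibroblast-gated cells (4, 92, 37 and 18 cells) held Igfbp6 at 906, 1763 and 403 CPM in corn oil 2 and 4OHT 1 and 2. Corn oil 1 had no Igfbp6 UMI in its 4 fibroblast-gated cells, and a count of 0 there allows up to 132 CPM. All 6 fibroblast markers had UMIs in corn oil 2 and 4OHT 1 and 2, with Dcn at 1870 to 4332 CPM and Col3a1 at 331 to 1297 CPM, while in corn oil 1 Col3a1, Lum and Pdgfra were at 0. The epithelial gene Epcam was at 706 CPM in corn oil 1 and 504 CPM in 4OHT 2, against 86.9 and 220 CPM in corn oil 2 and 4OHT 1, so the fibroblast-gated sums of the first pair also carried epithelial RNA. The few pericyte-gated cells (4, 2 and 7 cells in 3 libraries) had Igfbp7 at 764 to 7398 CPM. Leukocyte-gated cells (3, 38, 34 and 2 cells) had Igfbp2 at 2256, 36.9, 212 and 1885 CPM. The 2 high values came from the 3 and 2 cells of corn oil 1 and 4OHT 2. Leukocyte markers summed to 299 and 1257 CPM in these cells and luminal markers to 630 and 2042 CPM. In the cells of corn oil 1 basal markers summed to 730 CPM.

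Cells that passed no gate carried much of the signal as well. They held Igfbp2 at 545, 713, 401 and 628 CPM and Igfbp4 at 206, 214, 199.6 and 238 CPM, close to basal levels. Igfbp3 was at 148, 60.2, 184 and 55.3 CPM in them and Igf1r at 156, 112, 163 and 112 CPM. Both Igfbp3 and Igf1r were above the basal class in each library. Igfbp5 in them was at 722 and 480 CPM in corn oil and at 265 and 188 CPM in 4OHT libraries, and 24.8% of 12194 genes with at least 10 UMIs were likewise lower in both 4OHT libraries in these cells. Of all Igfbp2 UMIs in a library, a median of 66.3% (43.0% to 76.2% over the 4 libraries) came from basal cells and 31.1% (22.2% to 52.4%) from cells with no gate. Progenitors gave a median of 55.4% (38.9% to 63.7%) of the Igfbp5 UMIs and basal cells 22.0% (15.6% to 38.9%). For Igf1r the basal share was 54.2% (35.6% to 62.2%).

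The share of cells with at least 1 UMI was compared after each cell had been thinned to 2000 UMIs. Igfbp2 was then seen in 36.9%, 47.5%, 25.6% and 43.8% of basal cells (corn oil 1 and 2, 4OHT 1 and 2). Hormone-sensing cells, in which free RNA and true expression are not told apart, gave 1.99% to 3.37% (median depth before thinning 4745.5 to 8258 UMIs, against 2827.5 to 5152.5 in basal cells), and the deeper unthinned basal cells 35.4% to 54.2%. Most basal cells therefore had no Igfbp2 UMI at this depth, and a minority held many. Basal cells with at least 5 Igfbp2 UMIs numbered 72 of 1462, 177 of 1750, 16 of 1310 and 135 of 1799 and held 44.1%, 57.6%, 16.8% and 50.1% of the thinned Igfbp2 UMIs. 4OHT library 1, which had the lowest Igfbp2 level, had the fewest such cells. The minimum of 5 UMIs was chosen after the data were seen.

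The share of UMIs in the top 10% of cells was higher for Igfbp5 among progenitors than for Igfbp2 among basal cells in each library. The 10% of cells with the most held 71.5%, 67.0%, 78.5% and 76.8% of its UMIs, against 62.1%, 57.2%, 65.2% and 57.7% for Igfbp2. This was not particular to progenitors, since the same share for Igfbp5 in basal cells was 72.55%, 68.01%, 69.79% and 79.45%. The share is also high for genes seen in few cells. For Igf1r in basal cells it was 53.2%, 67.4%, 71.4% and 70.4%, above Igfbp2 except in corn oil library 1. The part of sparse counts in the contrast of Igfbp5 and Igfbp2 was not tested. Igfbp5 was seen in 31.8%, 27.9%, 24.8% and 22.6% of thinned progenitors, against 1.23% to 3.97% of hormone-sensing cells. Progenitors with at least 5 UMIs numbered 121 of 1248, 50 of 1098, 133 of 1630 and 64 of 1299, and they held 70.7%, 42.7%, 72.0% and 54.2% of its UMIs. In corn oil library 2 this share was below that of Igfbp2 in basal cells (57.6%), and in the other libraries it was above. The libraries numbered 1 had more progenitors with at least 5 Igfbp5 UMIs than those numbered 2 in both groups. No single cell decided these sums: the highest one held 1.78% to 3.40% of the progenitors' Igfbp5 UMIs. The variance-to-mean ratio (Fano factor, which is 1 for random counting) was 10.2, 3.94, 9.51 and 5.13 for Igfbp5 in progenitors. For Igf1r in basal cells it was 1.13 to 1.27, near random counting, with the receptor seen in 15.3% to 23.2% of basal cells and 3.62% to 5.83% of progenitors.

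**Figure D3:**
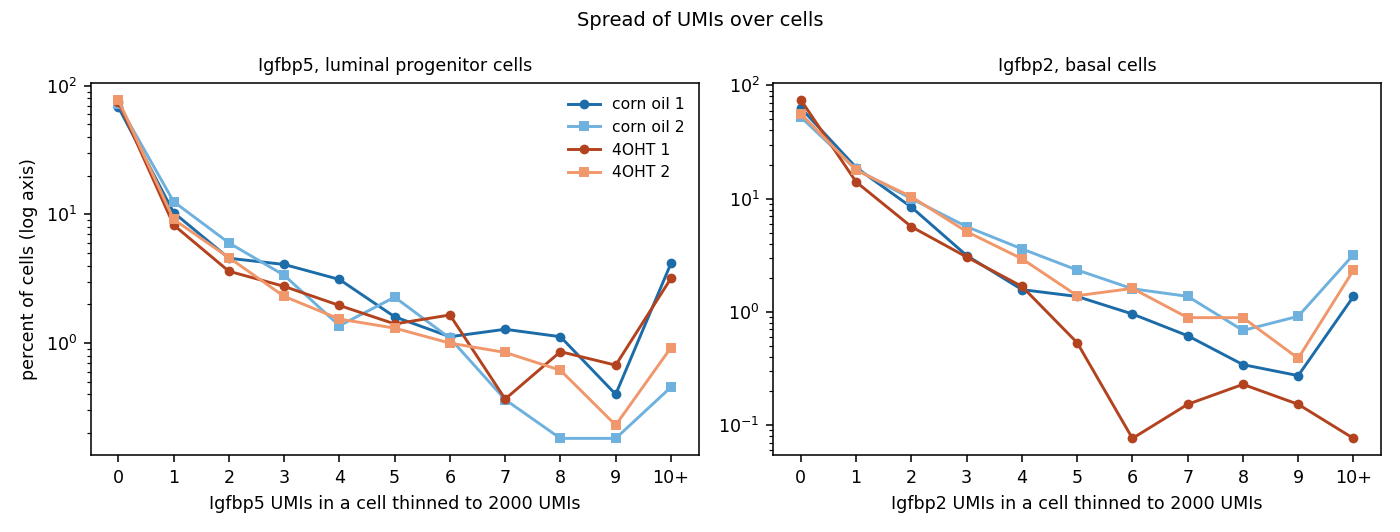
Percent of thinned cells (log axis; 2000 UMIs each) by the number of Igfbp5 UMIs in luminal progenitors and of Igfbp2 UMIs in basal cells, with 1 line for each library. Most cells lie at 0 UMIs, and each line has a tail of cells with at least 5 UMIs, lowest for Igfbp2 in 4OHT library 1.

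Within a class, genes were ranked by Pearson's r with each of the 7 genes over thinned cells, as the mean of the r in each of the 4 libraries. The cells of a library share its preparation, so these values are descriptions without a test. In 6321 basal cells and among 3402 genes, Igfbp4 was most like Bsg (basigin, a chaperone of lactate transporters; mean r 0.40, range 0.31 to 0.50), Ero1l (an oxidase of the endoplasmic reticulum; 0.38) and P4hb (protein disulfide isomerase; 0.37). Igfbp2 was most like Bsg (0.30, range 0.13 to 0.47), Ero1l (0.27) and Bnip3l (a mitophagy receptor; 0.26). Both basal binding proteins thus shared their first 2 genes, and Igfbp2 and Igfbp4 had an r of 0.19, 0.34, 0.16 and 0.29 with each other in the 4 libraries. Igf1r was led by Fam162a, Bnip3l and Egln3 (an oxygen-dependent prolyl hydroxylase), all at 0.16. Igfbp7 was led by Apoe (an apolipoprotein, 0.26), Sparc (a matrix glycoprotein, 0.23) and Ifitm3 (0.22). The strongest values for Igfbp3 (Sfn) and Igfbp6 (S100a6) were 0.09, too weak to describe a pattern in sparse counts.

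In 5275 progenitors and among 2901 genes, Igfbp5 was most like Ly6e (a GPI-anchored surface protein; mean r 0.56, range 0.49 to 0.66), Itm2b (0.51) and Cd14 (a lipopolysaccharide co-receptor, also one of the progenitor markers; 0.49). Igfbp5 and Igfbp7 varied together there, with r of 0.38, 0.21, 0.25 and 0.14. Progenitors with a UMI of both numbered 102, 67, 77 and 44, against 46.1, 33.4, 34.5 and 24.4 if the genes were independent. In basal cells the same pair had r of 0.17, 0.17, 0.22 and 0.09. The genomic neighbours Igfbp2 and Igfbp5 had r of -0.02, -0.04, 0.09 and 0.03 in basal cells. Basal cells with a UMI of both numbered 127, 227, 97 and 141, against 124, 226, 74.1 and 122 if independent. This excess in the 4OHT libraries was not tested and was not particular to the neighbours. For Igfbp2 and Igfbp7, on different chromosomes, such cells numbered 118, 215, 112 and 250, against 122, 234, 86.7 and 212.

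Across the 12 sums of 3 classes and 4 libraries, which share depth within a library, likeness over 4128 genes mostly recovered the class pattern. Among the closest genes were Rbpms for Igfbp2 (r 1.00 after rounding), Gtpbp2 for Igfbp4 (0.98), Atp2b1 for Igfbp5 (0.98) and Itpk1 for Igf1r (0.99). Igfbp6 had the weakest best match, Nop14 at 0.89.

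None of the 7 genes passed the test between libraries labelled 4OHT and corn oil in any class. In basal cells all 7 could be tested, in progenitors 6 (without Igfbp6) and in hormone-sensing cells 3 (Igfbp2, Igfbp5 and Igfbp7). The background was as low: of all genes, 0% were called in basal cells (0 of 10788), 0% in progenitors (0 of 10120) and 0.0132% in hormone-sensing cells (1 of 7589). At an unadjusted p under 0.05 the numbers were 465 genes (4.31%), 166 (1.64%) and 240 (3.16%), and DESeq2 called 38, 1 and 7.

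Igfbp5 had the lowest unadjusted p of the 7 in basal cells. Its levels there, 247 and 345 CPM in corn oil (296 ± 69.6, SD, n = 2) and 201 and 137 CPM in 4OHT libraries (169 ± 45.7, n = 2), did not overlap. The log2 difference was -0.79 (SE 0.28, adjusted p = 0.999, edgeR). It stayed below 0 in all 15 alternatives, from -1.05 to -0.43, and the lowest adjusted p among them was 0.112, with the replicate block. Igfbp4 was also lower in both 4OHT libraries in basal cells (277 ± 17.1 against 196 ± 60.1 CPM, SD, n = 2 each, log2 -0.42). So were 17.6% of the genes tested, and 30.7% did not overlap in either direction, so non-overlap was common. Igfbp6 was above corn oil in both 4OHT libraries (log2 0.65), as were 13% of genes. Igfbp2 (-0.45), Igfbp3 (0.08), Igfbp7 (0.17) and Igf1r (-0.13) overlapped between the groups.

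In progenitors Igfbp2 was higher in both 4OHT libraries (16.7 and 17.1 against 13.6 and 13.2 CPM, log2 0.42), as were 7.33% of genes (24.9% did not overlap in either direction). The other log2 differences were 0.69 for Igfbp3, -0.02 for Igfbp4, -0.23 for Igfbp5, -0.44 for Igfbp7 and 0.15 for Igf1r, all with overlapping libraries. In hormone-sensing cells Igfbp2 had -0.37 and Igfbp5 0.14. Igfbp7 was higher in both 4OHT libraries there (28.8 ± 5.68 against 13.7 ± 0.246 CPM, SD, n = 2 each; log2 1.02, SE 0.35, adjusted p = 1.00, edgeR), as were 17% of genes (30.5% did not overlap in either direction).

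Single cells carried much of the Igfbp7 count in this class. The highest cell held 14 of 18, 13 of 23, 29 of 51 and 30 of 63 Igfbp7 UMIs in corn oil 1 and 2 and 4OHT 1 and 2. In 4OHT library 1 this cell also held 118 Dcn, 13 Pdgfra and 9 Lum UMIs and all 10 Igfbp6 UMIs of the class. In 4OHT library 2 it held 8 Pecam1, 4 Cdh5 and 12 Egfl7 UMIs, which are endothelial genes. Without the highest cell of each library the levels were 3.11, 5.90, 14.3 and 13.0 CPM, which still did not overlap. Without cells with at least 3 UMIs of another cell type's markers the log2 difference was 0.12, and without the 5% of cells with the most UMIs it was -0.49. The fibroblast marker list in this class summed to 243 and 53.5 CPM in corn oil and 1346 and 238 CPM in 4OHT libraries, so only 4OHT library 1 stood apart and the groups overlapped. All 6 of its genes had a UMI, but Dcn alone gave 243, 50.6, 1325 and 237 CPM, and Col1a1 0 to 1.29 CPM. The marker filter removed unequal numbers of cells: those with at least 3 fibroblast-list UMIs numbered 28 of 151, 10 of 330, 88 of 240 and 43 of 447. The part of such cells in the difference was not tested.

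**Figure D4:**
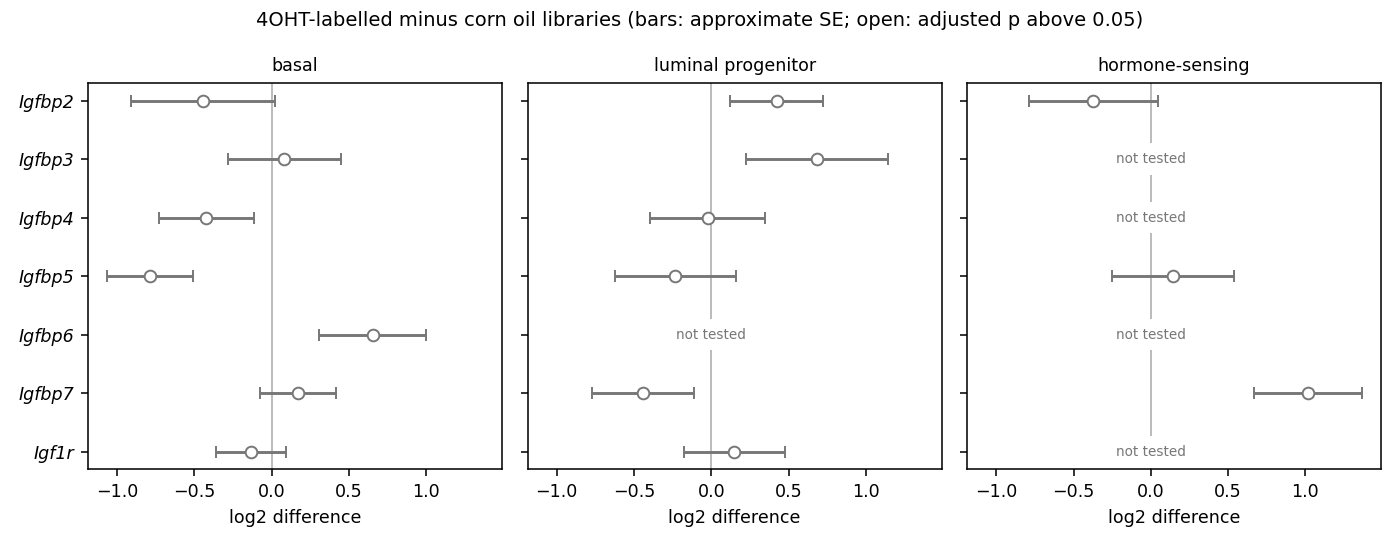
Log2 differences between libraries labelled 4OHT and corn oil in each class, from edgeR fits with 2 libraries per group, with bars for the approximate SE. Open points have an adjusted p above 0.05, which holds for every gene drawn, and genes too low to test are marked.

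Whether a treatment difference itself differed between classes was tested as an interaction. None of the 7 genes passed, and of all 11135 genes 0% were called between basal cells and progenitors, 0.00898% between basal and hormone-sensing cells and 0.00898% between hormone-sensing cells and progenitors. At an unadjusted p under 0.05 (4.03%, 6.15% and 3.97% of all genes in the same order) stood Igfbp2 (-0.94) and Igfbp6 (-3.63) between basal cells and progenitors, and Igfbp7 (1.42) and Igfbp4 (-1.87) between hormone-sensing cells and progenitors. The Igfbp6 and Igfbp7 values include the single cells described above, and the Igfbp4 value includes the 37 UMIs of corn oil library 1. Igfbp6 passed without 4OHT library 2 (-4.87, adjusted p = 0.0180) and with no filter on low counts (-3.66, adjusted p = 0.00144).

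The other genes of IGF signalling were read from a list of 34 genes, of which 24 were abundant enough for the class test. The ligands were nearly absent from epithelium. Igf1 had 12 UMIs over all basal cells, 38 over progenitors and 2 over hormone-sensing cells, and Igf2 had 1, 1 and 0. Between basal cells and progenitors 9 of the 24 genes were higher, 6 were lower and 9 did not pass, with a median of 0.15 against 0.04 over all genes, of which 56.1% were called. Between hormone-sensing cells and progenitors 4 were higher and 5 lower, with 46.4% of all genes called. Between basal and hormone-sensing cells 10 were higher and 7 lower, with 59.8% called. None passed between the treatment groups, of 25, 23 and 16 tested in basal, progenitor and hormone-sensing cells.

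Some proteases that act on binding proteins were higher in basal cells than in progenitors. Htra1, a secreted serine protease, was at 122, 172, 145 and 210 CPM in basal cells and at 2.34, 3.63, 5.95 and 4.19 CPM in progenitors. The log2 difference was 5.07 (SE 0.24, adjusted p = 6.7e-11, edgeR). Fibroblast-gated cells had Htra1 at 309, 449, 189 and 129 CPM, above basal cells except in 4OHT library 2. The value of corn oil library 1 rests on 4 cells, whose sum also carried epithelial RNA (Epcam at 706 CPM). Pappa, the pappalysin that cuts Igfbp4, was at 9.27, 9.94, 9.26 and 19.9 CPM in basal cells, 4.81 above progenitors (SE 0.40, adjusted p = 3.9e-08). Adam12, a metalloprotease reported to cut Igfbp3 and Igfbp5, was at only 3.04 to 3.87 CPM in basal cells but 4.45 above progenitors (SE 0.53, adjusted p = 2.8e-06). Progenitors held 9 UMIs of Pappa and 3 of Adam12 over the 4 libraries. Over the alternatives the log2 differences were 3.44 to 5.37 for Htra1, 3.63 to 5.39 for Pappa and 2.92 to 5.17 for Adam12.

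Other receptors and adaptors divided between the classes. Lrp1, an endocytic receptor proposed to bind Igfbp3, was at 120 to 173 CPM in basal cells against 4.27 to 8.69 CPM in progenitors (log2 4.31, SE 0.23, adjusted p = 2.6e-10, edgeR). Over the alternatives the log2 difference of Lrp1 was 2.84 to 4.65. Fibroblast-gated cells had Lrp1 at 0, 232, 245 and 57.5 CPM in corn oil 1 and 2 and 4OHT 1 and 2. Irs2, an adaptor of the activated receptor, followed Igf1r with 98.2 to 135 CPM in basal cells, 19.5 to 36.2 CPM in progenitors and 6.30 to 11.2 CPM in hormone-sensing cells, at 1.88 between the first 2 (SE 0.18) and -2.0 between the last 2. Lower in basal cells than in progenitors were Tmem219 (a proposed Igfbp3 receptor, -1.17), Grb10 (an inhibitory adaptor, -0.92), Ctsd (a lysosomal protease, -0.91), Foxo3 (-0.70), Irs1 (-0.69) and Grb2 (-0.49). Stc2, an inhibitor of pappalysin, marked hormone-sensing cells with 412, 189, 453 and 688 CPM against 8.39, 14.2, 7.97 and 50.1 CPM in progenitors (log2 4.41). The inhibitory adaptor Grb14 was also higher there (3.24), while Grb10 (-1.97) and Pik3r1 (a PI3-kinase subunit, -1.34) were lower.

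**Figure D5:**
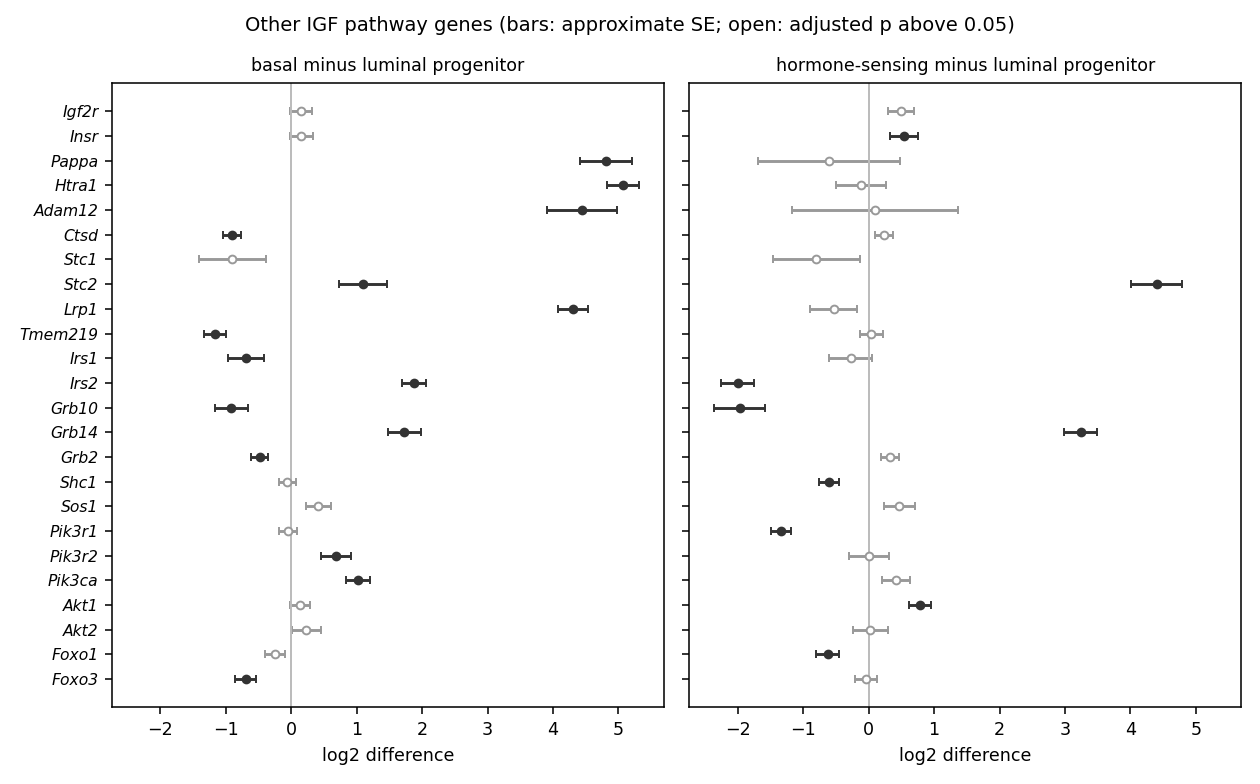
Log2 differences of basal cells (left) and hormone-sensing cells (right) from luminal progenitors for the 24 IGF pathway genes that could be tested, ordered by role, with bars for the approximate SE and filled points for an adjusted p of at most 0.05. Htra1, Pappa, Adam12 and Lrp1 lie at 4.31 to 5.07 on the left, and Stc2 (4.41) and Grb14 (3.24) stand highest on the right.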

How the data were processed

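The deposited matrices hold raw UMI counts per gene and cell, made by the authors with Cell Ranger 3.0.1 on an mm10 reference, per the submitters' processing notes and the labels. Cells with at least 1000 UMIs were kept. Cells with at least 5 UMIs of Krt5, Krt14, Krt17 and Acta2, and over 3 times those of Krt8, Krt18 and Krt19, were called basal, and the reverse luminal. Luminal cells with at least 3 UMIs of Ly6d, Fxyd2 and Gpx3, and more of these than of Wfdc18, Csn3 and Ltf, were called hormone-sensing, and the rest progenitors. The remaining cells were gated by 4 lists of non-epithelial markers (at least 3 UMIs, and more than of the other lists), or left without a gate. No doublet caller was run. Doublets are limited only by the gate ratio.

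Counts were summed per library and class and tested with edgeR 4.0.16 (quasi-likelihood test, TMM, filterByExpr, limma 3.58.1, R 4.3.3), with Benjamini-Hochberg adjustment at 0.05 over all genes tested. Class fits had the library as a block, since the classes of a library share it. SEs are approximate, from the size of the log2 difference and the F statistic. DESeq2 1.42.0, other size factors, no filter, other gates, a replicate block and leaving out each library were alternatives. Shares and correlations used cells thinned to 2000 UMIs, leaving out shallower cells, with numpy 2.4.6, scipy 1.17.1 and pandas 2.3.3 (Python 3.11.15). The edgeR script was tested on simulated data with 200 genes changed by 2 on the log2 scale. It recovered 91.5% to 100% of them, with 10 to 29 false calls. Smaller changes were not simulated. UMI totals of 17351950 to 22017878 per library set the precision, and intervals and limits of a count of 0 (3 counts) cover counting error only.

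Named genes were the 7 members, the 5 pathway genes of each class comparison with the largest difference past the threshold, and the 3 genes most like each member. Some of these like genes are not reported here. The further pathway genes named as lower in basal cells were chosen after their values were seen. The members, lists and rules were chosen with earlier results of these data known. The labels differ on how long injections lasted (5 days or a week). The cells came from 2 mice per condition, per the labels.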

Additional observations from a re-analysis of the deposited data

Results flagged for a closer look

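Cells below the minimum of 1000 UMIs, which no comparison used, still held Igfbp3, and both 4OHT libraries were above both corn oil libraries in them. The levels were 36.3 and 45.0 CPM in corn oil and 49.6 and 64.8 CPM in 4OHT libraries, the lower 4OHT value being 49.65 CPM before rounding. They came from 1, 3, 5 and 6 UMIs in 37, 90, 139 and 125 cells. Of 3711 genes with at least 10 UMIs in these cells, 17.7% were likewise above corn oil in both 4OHT libraries and 13.1% below. Igfbp2 was below, at 798 and 495 CPM in corn oil and 119 and 216 CPM in 4OHT libraries (22, 33, 12 and 20 UMIs). The Igfbp3 difference was not tested, and it rests on 1 to 6 UMIs per library.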

How the results depend on the processing

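Class differences of single genes kept their direction and call in 520 of 538 alternative fits, with 8 lost calls, 6 gained calls and 4 reversals. The reversals were of Igfbp6 between hormone-sensing cells and progenitors with a gate ratio of 1, added after the data were seen (0.033), and others when a library was left out. None of the 7 genes passed a treatment test in any of 231 fits, of which 23 reversed direction.

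The counts of genes called between treatment groups moved with the setting, in basal, progenitor and hormone-sensing cells from 0, 0 and 1 to 93, 39 and 59 with no filter on low counts and 38, 1 and 7 with DESeq2. A gate ratio of 10 gave 1 in progenitors. In hormone-sensing cells 0 were called with at least 2000 UMIs per cell and 0 with a gate ratio of 1. For the interactions (basal against progenitor, basal against hormone-sensing, hormone-sensing against progenitor), no filter gave 39, 80 and 35.

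The replicate block gave 167, 9 and 3 genes in the 3 classes and 3, 17 and 5 in the interactions, and no call of the 7 genes. Deviations of same-numbered libraries from their group means correlated at 0.59, 0.33 and 0.22, but with 2 pairs the numbers are not shown to pair the samples.

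Leaving out corn oil 1, corn oil 2, 4OHT 1 and 4OHT 2 in turn gave 59, 29, 127 and 17 genes in basal cells (17 to 127), 46, 43, 64 and 31 in progenitors (31 to 64) and 12, 37, 4 and 80 in hormone-sensing cells (4 to 80). The interactions had 0 to 7, 0 to 14 and 0 to 6, each highest without 4OHT 2. The lone library of an arm is there assumed to vary like the others.

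Treatment differences that reversed when a library was left out were, in basal cells, Igf1r (-0.27 to 0.055), Igfbp2 (-1.25 to 0.072), Igfbp3 (-0.38 to 0.48) and Igfbp7 (-0.024 to 0.43). In progenitors they were Igf1r (-0.091 to 0.41), Igfbp4 (-0.24 to 0.27), Igfbp5 (-0.67 to 0.42) and Igfbp7 (-0.79 to 0.046), and in hormone-sensing cells Igfbp5 (-0.13 to 0.33). Igfbp4 between hormone-sensing cells and progenitors ranged from -1.41 to 0.084. Interactions between basal cells and progenitors ranged from -0.69 to 0.12 for Igf1r, -1.36 to 0.12 for Igfbp3, -1.46 to 0.22 for Igfbp5 and -0.073 to 1.19 for Igfbp7. Between basal and hormone-sensing cells they were -1.21 to 0.89 for Igfbp2, -1.37 to 2.39 for Igfbp4 and -6.00 to 4.23 for Igfbp6. Between hormone-sensing cells and progenitors they were -1.02 to 0.51 for Igfbp3, -2.65 to 0.62 for Igfbp4, -0.25 to 0.98 for Igfbp5 and -4.48 to 2.49 for Igfbp6.

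Other reversals were Igfbp3 in basal cells with a gate ratio of 10 (-0.037), and Igfbp4 in progenitors with at least 2000 UMIs (0.0027), without the 5% of cells with the most UMIs (0.58) and with gate ratios of 10 (0.17) and 1 (0.90). In hormone-sensing cells they were Igfbp2 without cells with other markers (0.055) and with a gate ratio of 1 (0.13), and Igfbp5 (-0.26) and Igfbp7 (-0.49) without the 5% of cells with the most UMIs. The cause was not tested.

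Shares of cells with a UMI followed depth. Without thinning and with thinning to 1000 UMIs their means over libraries were 13.8% and 5.70% for Igfbp3, 32.2% and 14.7% for Igfbp4, 2.75% and 0.846% for Igfbp6, 36.9% and 15.4% for Igfbp7 and 30.8% and 9.91% for Igf1r in basal cells, and 34.7% and 19.9% for Igfbp5 in progenitors. Igfbp2 in basal cells was at 25.7% with thinning to 1000 UMIs. Depth limits the hormone-sensing class most, with 1297128 to 2539711 UMIs per library.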
